A study of Mus musculus with 4 samples.

Results

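The mesenchyme of the mouse mammary rudiment was compared at E13.5, when the epithelium is a bud, and at P0, the day of birth. Single cells were assigned to it by their own counts of unique molecular identifiers (UMIs, distinct transcripts counted per gene and cell). A cell had to hold at least 5000 UMIs, with at most 6% of them on mitochondrial genes. It also had to hold at least 10 UMIs of the fibrillar collagen genes Col1a1, Col1a2 and Col3a1 together, and more than 2 times as many of these as of Epcam, Krt8, Krt18, Krt5, Krt14 and Krt15 together. Of the 738 cells past the depth and mitochondrial limits in these 2 libraries, 394 met the rule, 129 at E13.5 and 265 at P0. All 4 libraries of the series, which also cover E14.5 and E15.5, held 1630 cells past the same limits. The cells were thus selected on their measured counts of these collagen and epithelial genes, which are given below as description only, and no gene was tested.

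Mammary rudiments of wild-type female C57B6 mice (C57 B6/N in the study's methods) were dissected and pooled from several embryos of different dams at each stage. The tissue was digested for 90 minutes, at E13.5 in 300 U/ml collagenase A with 300 U/ml hyaluronidase and at P0 in 600 U/ml collagenase A with 150 U/ml hyaluronidase, followed at P0 by red cell lysis in 0.63% NH4Cl. Viable single cells that lacked CD45, CD31 and Ter119 (markers of leukocytes, endothelium and erythroid cells) were sorted into EpCAM-positive epithelial and EpCAM-negative stromal cells, and 10x Chromium 3′ libraries were sequenced. There was 1 library per stage, so stage, digestion, animals and library cannot be told apart, and no p-value is given. The rule pools the mesenchymal subsets that the study describes at each stage. A difference in their mix was not separated from a difference within cells.

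The mammary mesenchyme of the embryo is divided into a primary and a secondary compartment. The dense primary mesenchyme surrounds the bud and exchanges Wnt, BMP and PTHrP signals with it, and the looser secondary mesenchyme below it becomes the fat pad into which the ducts grow. Fibroblasts of this lineage deposit the collagens, elastic fibres and proteoglycans of the gland, and a share of them later become adipocytes.

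The mesenchymal cells held 2338156 UMIs at E13.5 and 2457082 at P0, so the summed depth was alike, but each cell was shallower at P0. The median cell held 16573 UMIs and 4228 genes at E13.5 (lowest 5240, highest 43629 UMIs) against 8778 UMIs and 2463 genes at P0 (lowest 5000, highest 28761 UMIs). The mitochondrial share had a median of 3.38% at E13.5 and 1.49% at P0. No barcode was shared between the 2 libraries. Doublets were gated out at the sort and no caller was run on the counts, and 3 cells at E13.5 and 5 at P0 had 10 or more UMIs of the epithelial genes. In each stage, the cell with the fewest collagen UMIs lay close to the limit of 10, with 12 at E13.5 and 11 at P0, and the highest cell left out on that limit had 9 at both. The P0 cell with 11 was the globin-rich cell described below, and the next lowest had 16. The ratio of collagen to epithelial UMIs was 2.38 in the lowest cell kept at E13.5 and 2.22 at P0, and 1.31 and 1.15 in the highest cell left out.

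Independent markers were read against the label. Dcn (decorin, a collagen-binding proteoglycan) was found in 69.0% of the E13.5 cells and 98.9% of the P0 cells after each cell was thinned at random to 5000 UMIs, against 11.2% and 8.30% of the epithelial cells of the same libraries. Twist2, a mesenchymal transcription factor of dermis and stroma, was found in 49.6% and 25.7% of the mesenchymal cells and in 1.02% and 0% of the epithelial cells (0 of 229, which allows up to 1.31%). Both markers were thus far more frequent in the selected cells at both stages. Intervals on counts, ratios and shares are exact 95% intervals and cover counting error within a library only.

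Markers of other cell types were low apart from globins. The summed level of 11 leukocyte genes was 5.99 CPM (a gene's UMIs in the summed cells, scaled to a common total) at E13.5 and 12.2 CPM at P0, and that of 10 endothelial genes was 32.5 and 39.5 CPM. Ptprc, the gene of CD45, and the endothelial Tie1 and Vwf had no UMI at either stage. Pecam1, the gene of CD31, was at 5.56 and 34.6 CPM, and Cdh5 had 3 UMIs at E13.5 and 0 at P0. Mural genes summed to 81.7 and 127 CPM, muscle genes to 57.7 and 36.2 CPM, neural and glial genes to 49.2 and 16.3 CPM, and melanocyte genes to 5.13 and 25.2 CPM. The epithelial genes of the rule summed to 71.0 CPM at E13.5 and 330 CPM at P0, and 14 further epithelial genes to 42.3 and 171 CPM, against 3963 and 5200 CPM in the epithelial cells. The higher epithelial background at P0 stands beside every gene below that was also high in P0 epithelium, and its part in them was not tested. The α- and β-globin counts of P0 came almost wholly from 1 cell, which held 10640 of the 10706 globin UMIs, 500 genes and 11 collagen UMIs. Chondrocyte and bone genes summed to 74.8 and 295 CPM, against 197 and 664 CPM in the epithelial cells. Sox9 held 40.6 and 281 CPM of this in mesenchyme, while the cartilage gene Acan had no UMI at either stage.

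A level below is a gene's share of all UMIs of the cells, in CPM, so a group of genes that takes a larger share lowers every other gene. The collagens of the rule took 0.497% of the UMIs at E13.5 and 7.58% at P0. Gm42418 and AY036118, which collect ribosomal RNA, stood at 7638 and 637 CPM at E13.5 and at 28623 and 2874 CPM at P0. Of 32285 genes, 18231 had a UMI in at least 1 mesenchymal cell and 8369 had a mean level of at least 10 CPM over the 2 stages. The median of these 8369 genes was 0.55 lower at P0 on the log2 scale. By a fixed 2-fold limit 1149 genes (13.7%) were higher at P0 and 2776 (33.2%) were higher at E13.5, so 29.3% of the genes past 2-fold were higher at P0. Centred on the median gene, 1756 were higher at P0 and 1459 at E13.5 and that share was 54.6%. The counts of each gene group below are to be read beside the 13.7% and 33.2% of all genes and the median of −0.55. The filter takes the mean of the stages, so a gene can pass it through 1 stage alone, as Fabp4 and Ccl7 did through P0. Such genes lie in several groups below, so the counts of every group are description and no test.

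**Figure D1:**
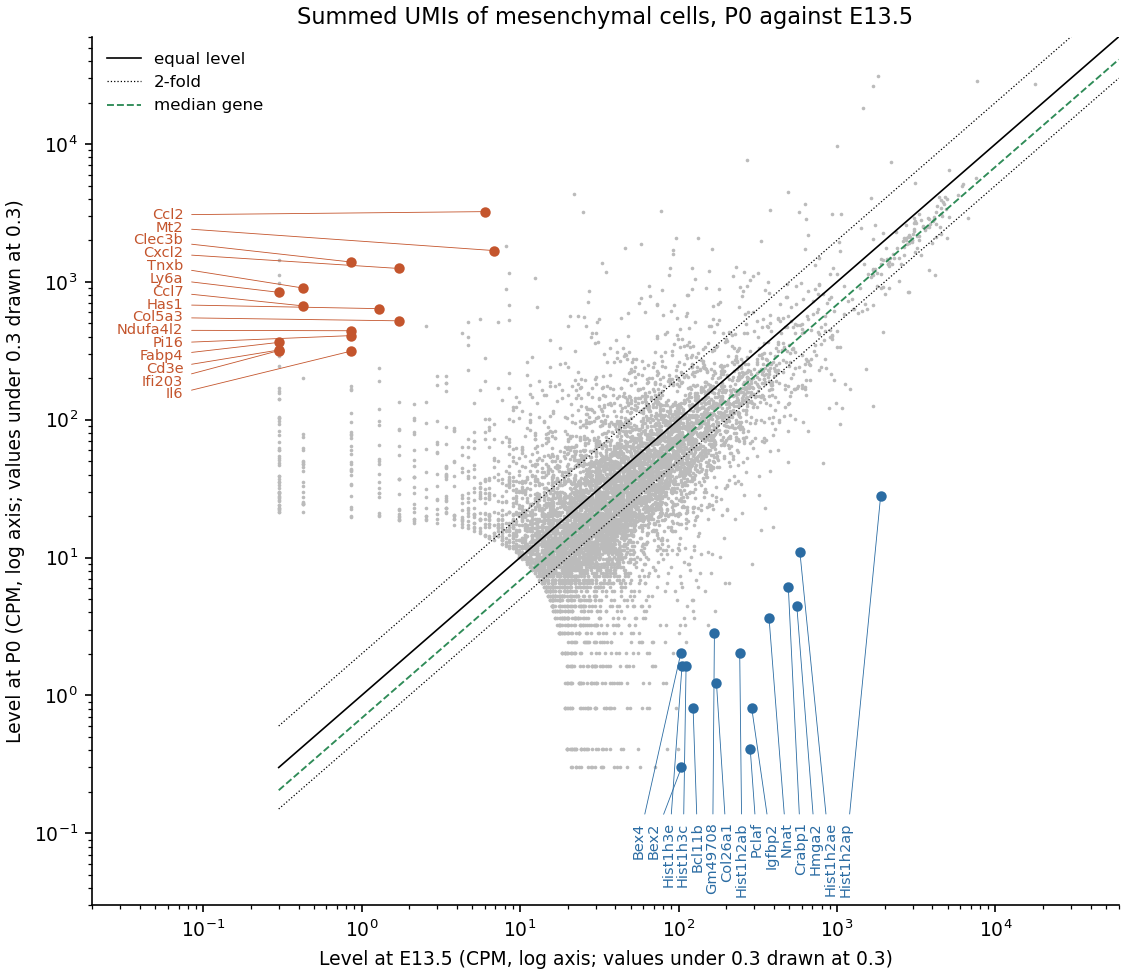
Each point is a gene past the level filter, placed by its level in the summed mesenchymal cells at E13.5 (x axis, CPM, log scale) and at P0 (y axis, CPM, log scale). The 15 genes named with the highest ratio lie at the upper left and the 15 with the lowest at the lower right, while the dashed line of the median gene runs below the line of equal level, by 0.55 on the log2 scale.

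The genes with the highest ratios of P0 over E13.5 included known fibroblast genes. Among genes with at least 100 CPM in the higher stage and a UMI in at least 25% of its cells, Clec3b (tetranectin, a plasminogen-binding protein of matrix) went from 2 UMIs (0.855 CPM) at E13.5 to 3425 UMIs (1394 CPM) at P0, a ratio of 1630 (451 to 13462). In thinned cells Clec3b was found in 1.55% of the cells at E13.5 and 91.3% at P0, against 6.99% of the P0 epithelial cells. Without thinning the shares in mesenchyme were 1.55% and 92.8%. Tnxb (tenascin X, which tethers collagen fibrils) had 1 UMI at E13.5 and 2216 at P0, and was found in 89.8% of the P0 cells. Ly6a (Sca-1, a surface marker of stromal progenitors) had no UMI at E13.5 and 840 CPM at P0, at least 654-fold higher by a floor of 3 counts per stage. Most P0 cells thus carried transcripts of these genes, which were found in at most 1.55% of the thinned E13.5 cells.

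The same rule named the matrix genes Has1 (hyaluronan synthase), with a ratio of 498 (170 to 2419), and Col5a3, with a ratio of 305 (119 to 1121). Pi16, a marker of adventitial fibroblasts, had 0.855 CPM at E13.5 and 407 CPM at P0, and Fabp4, the fatty acid carrier of adipocytes, had no UMI and 364 CPM, at least 284-fold higher. Ndufa4l2, a mitochondrial protein of the hypoxia response, was at 0.855 and 442 CPM. Ccl2, Ccl7, Cxcl2 and Il6, secreted signals to leukocytes, and Mt2, a metal-binding protein, made up most of the rest and are described with their groups. The remaining genes of the 15 were Ifi203, an interferon-inducible gene, and Cd3e, a gene known from T cells.

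The genes with the lowest ratios were of several kinds. Igfbp2, a carrier of insulin-like growth factors, was at 290 CPM at E13.5 and 0.814 CPM at P0 (2 UMIs), a ratio of 356 (98.1 to 2943). Hmga2, a chromatin protein of fetal cells, was at 558 and 4.48 CPM, 125-fold lower at P0 (69.4 to 250), and was found in 83.0% of the thinned E13.5 cells and 1.89% of those of P0. Crabp1, a binding protein of retinoic acid, was at 493 and 6.10 CPM, 80.8-fold lower (48.8 to 145). Col26a1 was at 174 and 1.22 CPM, Nnat (neuronatin, an imprinted membrane protein) at 373 and 3.66 CPM, and Bcl11b, a transcription factor of skin and thymus, at 124 and 0.814 CPM. Pclaf, a partner of the replication clamp, had 663 UMIs at E13.5 and 1 at P0. The other 8 genes were the replication-dependent histone genes Hist1h2ab, Hist1h3c, Hist1h2ap, Hist1h3e and Hist1h2ae, the X-linked Bex2 and Bex4, and the transcript Gm49708. Histone and Bex genes have near-identical copies between which reads can be split, so the single values of these families are uncertain.

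Matrix genes as a group took a larger share of the P0 transcripts. Of the rule's own collagens, Col3a1 was at 1827 CPM at E13.5 and 31081 CPM at P0, Col1a1 at 1687 and 26452 CPM and Col1a2 at 1452 and 18257 CPM. Of 29 other collagen genes 22 passed the level filter, 12 of them higher at P0 and 6 higher at E13.5, with a median log2 ratio of 1.84. With no filter on low genes this median was 0.42, and with a mean of at least 50 CPM it was 2.67. The fibril regulators Col5a1 (163 to 1718 CPM) and Col14a1 (121 to 1251 CPM), the basement membrane chains Col4a1 (72.7 to 695 CPM) and Col4a2 (38.9 to 262 CPM) and all 3 of Col6a1, Col6a2 and Col6a3 were higher at P0. Col15a1, found in basement membranes of fat and vessels, had 0.855 and 95.6 CPM. The collagens higher at E13.5 were Col26a1, the membrane-spanning Col23a1 (122.7 to 4.07 CPM) and Col25a1 (29.5 to 0.814 CPM), the cartilage-type Col11a1 (73.6 to 11.4 CPM) and Col9a2, and Col7a1. The fibrillar, basement membrane and beaded-filament chains named first were thus on the P0 side, and the membrane-spanning ones on the E13.5 side.

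Elastic fibre and glycoprotein genes lay on the P0 side or within 2-fold. Of 38 listed genes 36 passed the filter, 28 were higher at P0 and 0 were higher at E13.5, with a median of 2.36. Together they held 4371 CPM at E13.5 and 36303 CPM at P0, a ratio of 8.30 (8.14 to 8.48). Per cell thinned to 5000 UMIs, the list counted 5 to 57 UMIs at E13.5 with a median of 20, and 1 to 380 at P0 with a median of 175. The P0 cell next above the lowest had 14. Thus 254 of the 265 P0 cells lay above the highest E13.5 cell.

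Within that list the microfibril genes did not move alike. Fbn1 (fibrillin-1) was at 97.1 and 2069 CPM, 21.3-fold higher at P0 (18.7 to 24.5), while the fetal fibrillin gene Fbn2 was at 343 and 539 CPM, a ratio of 1.57 (1.44 to 1.72). Mfap5 was at 8.13 and 1808 CPM and its relative Mfap2 at 490 and 564 CPM. Eln, which encodes elastin itself, was at 65.0 CPM at E13.5 and 928 CPM at P0 and was found in 20.9% and 58.9% of the thinned cells. Postn (periostin) reached 7594 CPM from 272 CPM, Sparc 9690 CPM from 997 CPM, Fn1 (fibronectin) 3320 CPM from 377 CPM and Thbs1 (thrombospondin-1) 2067 CPM from 133 CPM. The basement membrane linker Nid1 was 18.4-fold higher and its relative Nid2 was 1.33-fold higher. Tenascin C (Tnc) was at 26.9 and 18.3 CPM, whereas Tnxb was among the highest ratios of all genes.

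Proteoglycans and the enzymes that build and cut matrix lay mostly on the same side. Of 16 proteoglycan and hyaluronan genes past the filter 10 were higher at P0 and 3 at E13.5. The small leucine-rich members Aspn (32.9 to 1370 CPM), Ogn (150 to 901 CPM), Lum (296 to 1109 CPM) and Dcn (491 to 4506 CPM) were higher at P0, and the cell-surface Sdc1, Sdc3 and Gpc1 were higher at E13.5. Vcan (versican), which opens space around loose mesenchyme, was 2.24-fold higher at P0. Of 18 genes for collagen maturation 14 were higher at P0 and 0 at E13.5, among them the crosslinking enzyme gene Lox (113 to 809 CPM) and the propeptide-cleavage enhancer Pcolce (87.7 to 1125 CPM). The collagen chaperone Serpinh1 was at 994 and 1149 CPM. Of 24 proteases and inhibitors 18 were higher at P0 and 4 at E13.5, and Mmp2, a gelatinase, was at 113 and 592 CPM and its inhibitor Timp2 at 165 and 670 CPM. Mmp11 (52.2 to 11.0 CPM) and Adamts15 (22.2 to 2.44 CPM) lay the other way.

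**Figure D2:**
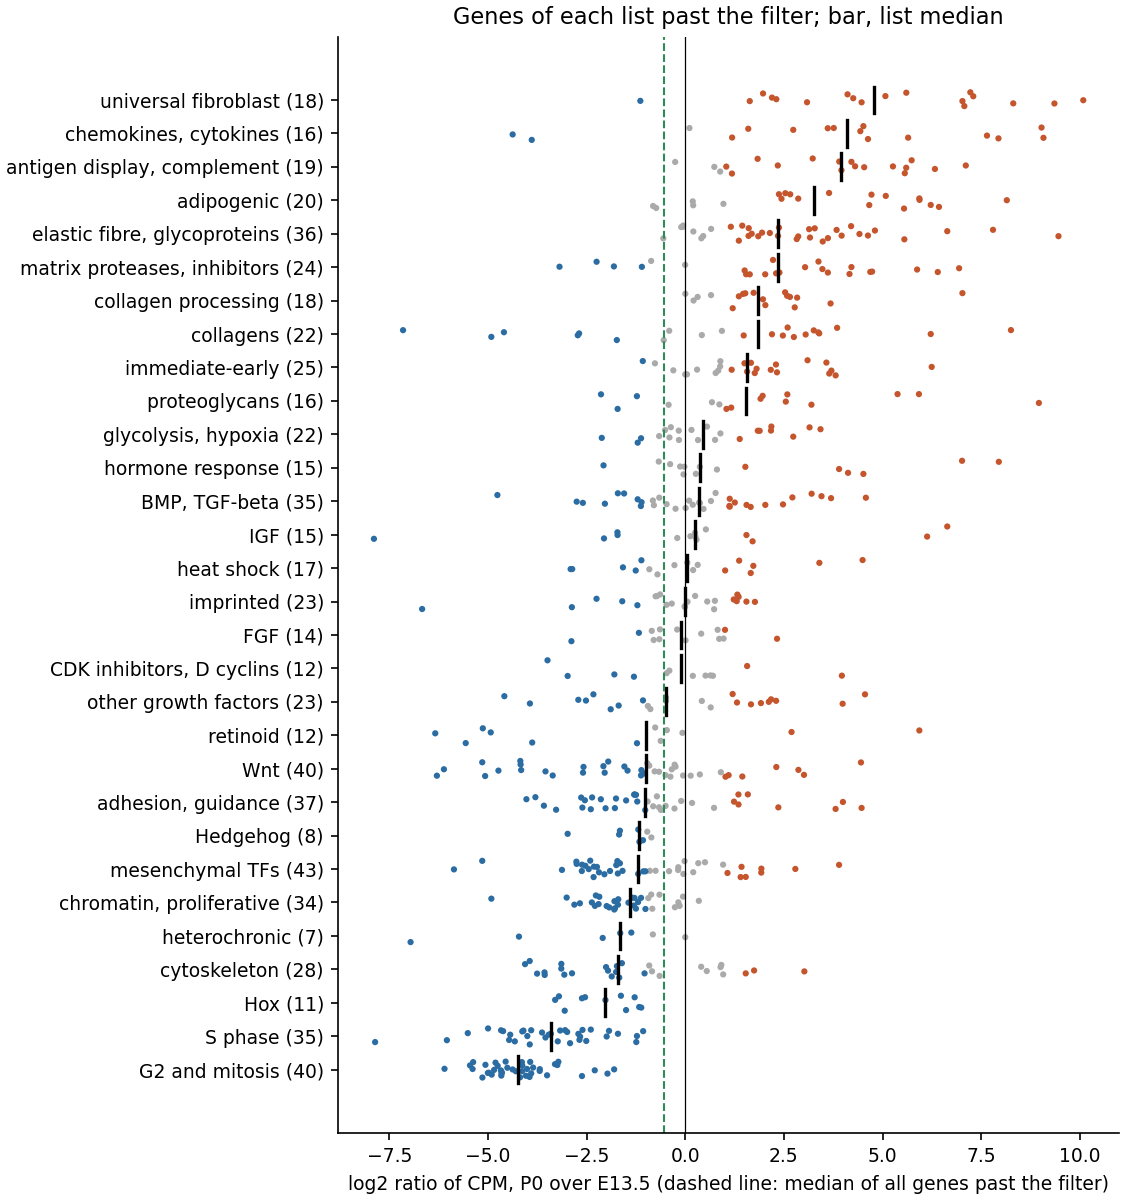
Each point is a gene past the level filter, by its log2 ratio of P0 over E13.5 (x axis), in rows by gene list, and the black bar is the median of the list. The medians run from −4.24 for genes of G2 and mitosis to 4.77 for universal fibroblast genes, around the dashed line at −0.55 for all genes.

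A list of 18 genes that includes markers of resting fibroblasts of many adult tissues passed the filter whole. Of these, 17 were higher at P0 and 1 at E13.5 (Limch1), with a median of 4.77. The list was chosen with earlier results of these data known. Members such as Clec3b, Ly6a, Pi16, Dpp4 and Dpt passed the filter only through their P0 level, so these counts are description and no test. The 18 genes summed to 407 CPM at E13.5 and 7792 CPM at P0, 19.1-fold higher (17.9 to 20.4), and 252 of 265 P0 cells lay above the highest E13.5 cell. Beside Clec3b, Ly6a and Pi16, the list held Dpt (dermatopontin, 8.55 to 1150 CPM), the peptidase gene Dpp4 (1.28 to 192 CPM), the guidance ligand Sema3c (25.2 to 558 CPM), Gsn (gelsolin, 92.4 to 1597 CPM) and Cd34 (47.9 to 407 CPM). The ligand gene Wnt2 was at 15.0 and 74.1 CPM.

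Most adipocyte genes past the filter were also higher at P0. Of 29 genes 20 passed the filter, 15 higher at P0 and 0 higher at E13.5, with a median of 3.25. Lpl (lipoprotein lipase) was at 12.4 and 1069 CPM, Apoe at 34.6 and 1172 CPM, Aoc3 at 0.855 and 78.5 CPM, and the adipogenic factor genes Pparg at 3.85 and 19.9 CPM, Cebpa at 4.70 and 27.3 CPM and Cebpb at 43.6 and 545 CPM. The lipid droplet coat gene Plin2 (45.3 to 51.7 CPM) and Ebf2 (45.3 to 52.1 CPM), a factor of preadipocytes, lay within 2-fold. Of further members, Cidec and Cfd reached 0 UMIs and Plin1 and Gpd1 1 UMI in the highest thinned P0 cell. Adipoq, Retn and Car3 had a median of 0 UMIs in these cells and reached 14, 29 and 48 UMIs in the highest cell. The list counted 0 to 17 UMIs per thinned cell at E13.5 and 1 to 161 at P0, with medians of 2 and 17. The 90th percentile of the E13.5 cells and the 10th percentile of the P0 cells were both 6 UMIs, and 128 of 265 P0 cells were above the highest E13.5 cell.

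Within the P0 cells, Pi16 and Fabp4 were found mostly in different cells. Of 265 thinned cells 113 had a UMI of Pi16, 85 of Fabp4 and 11 of both, so Fabp4 was found in 9.73% of the cells with Pi16 and 48.7% of those without. Dpp4 was found in 69.9% of the cells with Pi16 and 17.1% of those without. In the P0 epithelial cells Pi16, Dpp4 and Fabp4 were found in 1.75%, 0.873% and 3.93%. Without thinning, 125 cells had Pi16, 95 Fabp4 and 20 both.

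**Figure D3:**
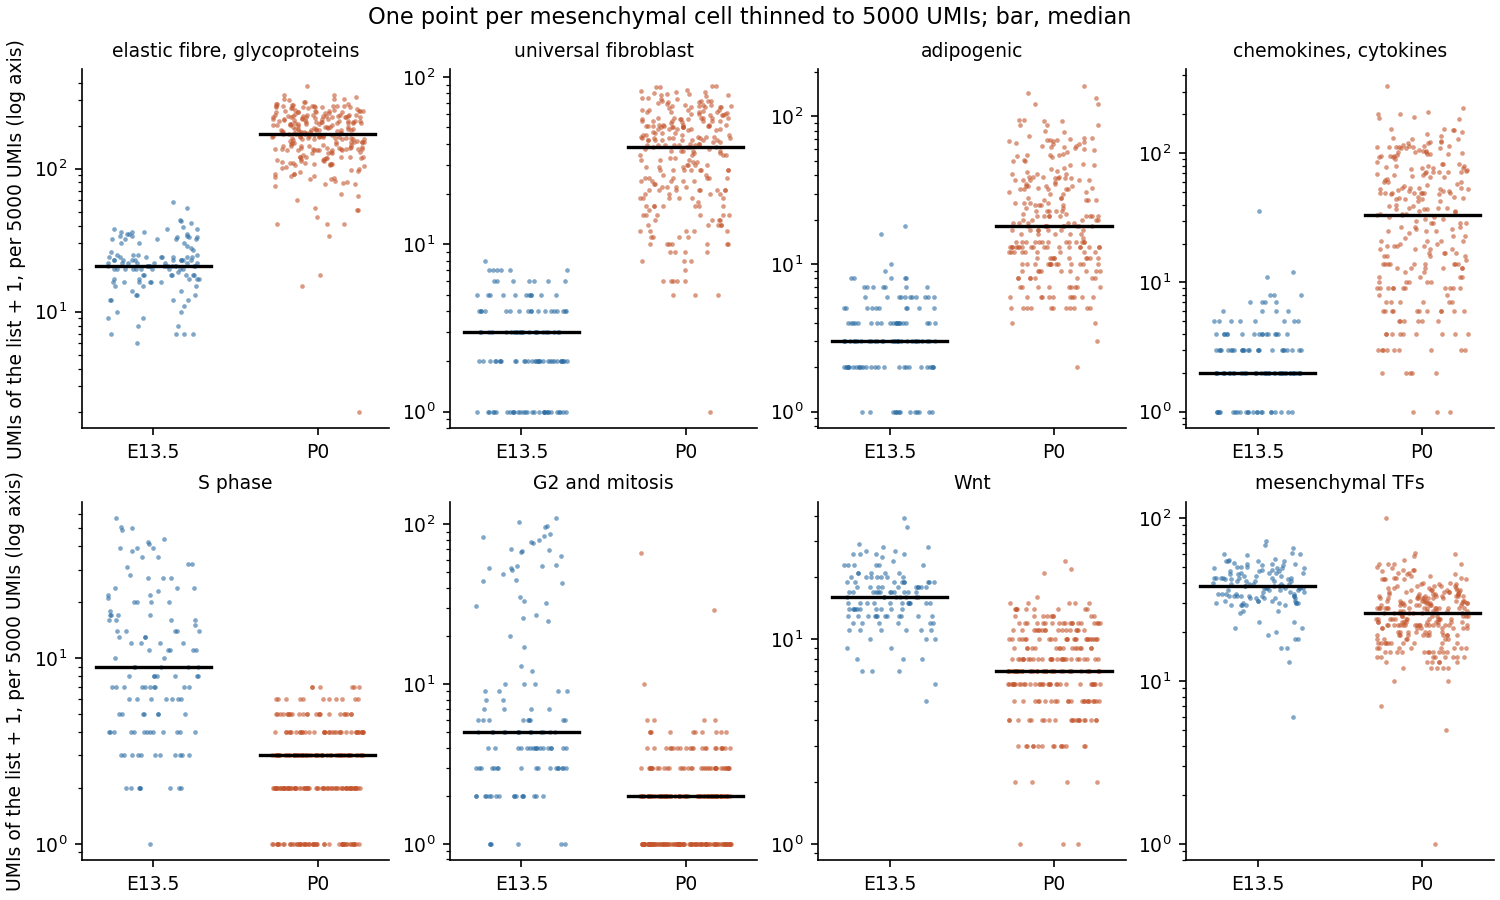
Each point is a mesenchymal cell thinned to 5000 UMIs, with the summed UMIs of a gene list plus 1 on a log axis, and the bar is the median of the stage. The elastic fibre and universal fibroblast panels show almost separate clouds (medians 20 and 175, and 2 and 37), the adipogenic panel a P0 cloud with a long upper tail, and the S phase panel the E13.5 cells spread up to 56 UMIs against at most 6 at P0. In the G2 and mitosis panel the medians are 4 and 1, and the highest cell has 109 UMIs at E13.5 and 65 at P0.

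Genes of the cell cycle were lower at P0 without exception among those past the filter. All 35 S-phase genes past the filter, of 40 listed, and all 40 genes of G2 and mitosis were more than 2-fold lower, with medians of −3.41 and −4.24, and the summed levels were 7.41-fold (6.92 to 7.94) and 13.7-fold (12.7 to 14.8) lower. Top2a (topoisomerase IIα) was at 329 and 15.9 CPM, Mki67 at 136 and 7.73 CPM, Cdk1, the mitotic kinase, at 124 and 4.88 CPM, and the helicase subunit gene Mcm5 at 80.4 and 1.22 CPM. Pcna, the replication clamp, was at 183 and 78.1 CPM and Slbp, the histone mRNA-binding protein, at 148 and 70.4 CPM, the smallest differences of the S-phase list.

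Fewer cells also carried these transcripts at P0. Cells with at least 2 UMIs of Top2a and Mki67 per 5000 made up 30 of 129 at E13.5, or 23.3% (16.3 to 31.5), and 3 of 265 at P0, or 1.13% (0.234 to 3.27). Without thinning the shares were 34.1% and 2.64%. The epithelial cells of the same libraries stood at 31.6% and 6.99%. With every cell left out that had a UMI of Top2a or Mki67, the G2 and mitosis median became −1.21 and the S-phase median −2.51, over the genes that still had more than 3 counts in a stage, and the ratios of Smc4, Kif23 and Ccne2 turned to the P0 side. Those of Pcna, Slbp and Ube2c then lay within 2-fold. Top2a and Mki67 are themselves on the G2 and mitosis list, so leaving out cells by them reduces the difference of that list by construction.

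Regulators of cycle entry were mixed. Ccnd1 (cyclin D1) was at 320 CPM at E13.5 and 28.5 CPM at P0, Ccnd2 at 629 and 255 CPM and Ccnd3 at 187 and 142 CPM. Cdkn1a (p21) was at 15.4 and 241 CPM, 15.6-fold higher at P0, while Cdkn1c (p57) was at 1689 and 1216 CPM.

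Promoters of cell cycle genes are shown for short elements whose frequency differed between the S-phase list and the G2 and mitosis list. The CHR element, read as TTTGAA on either strand, lay between 250 bases before and 50 after the start in 27 of the 34 genes of G2 and mitosis that had a promoter entry (79.4%), in 11.8% of 34 S-phase genes, and in 20.2% of 27025 genes. An E2F site, read as TTTGGCGC or TTTCCCGC on either strand, lay in 11 of 34 S-phase genes (32.4%), 2.94% of the G2 and mitosis genes and 1.80% of all genes. Each line gives the 150 bases before the start from RefSeq (GRCm38.p6), 5′ to 3′ on the strand of the gene, with the match in capitals, for 3 genes with a CHR element and then 2 with an E2F site. A match is a string of letters and does not show binding.
Cdk1 (chr10:69352913-69353062, minus strand): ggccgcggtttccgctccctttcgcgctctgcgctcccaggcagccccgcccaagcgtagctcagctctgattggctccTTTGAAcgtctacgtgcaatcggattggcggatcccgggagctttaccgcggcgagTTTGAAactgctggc
Top2a (chr11:99024190-99024339, minus strand): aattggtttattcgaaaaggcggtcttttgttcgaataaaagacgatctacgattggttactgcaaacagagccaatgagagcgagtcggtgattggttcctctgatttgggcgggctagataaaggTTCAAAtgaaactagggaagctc
Ube2c (chr2:164769779-164769928, plus strand): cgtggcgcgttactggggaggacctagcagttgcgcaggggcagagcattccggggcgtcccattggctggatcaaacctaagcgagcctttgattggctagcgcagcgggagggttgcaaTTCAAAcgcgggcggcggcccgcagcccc
Hells (chr19:38930840-38930989, plus strand): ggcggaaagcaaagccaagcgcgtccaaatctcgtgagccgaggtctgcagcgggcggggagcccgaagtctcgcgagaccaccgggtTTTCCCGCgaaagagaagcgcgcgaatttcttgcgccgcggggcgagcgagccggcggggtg
Mcm6 (chr1:128359706-128359855, minus strand): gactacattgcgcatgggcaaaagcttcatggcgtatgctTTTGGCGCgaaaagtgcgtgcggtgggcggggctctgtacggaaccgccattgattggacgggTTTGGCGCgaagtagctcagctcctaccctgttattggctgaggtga

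Most genes past the filter on a list of an early embryonic timing programme were lower at P0. Of 13 listed 7 passed the filter, with 5 at least 2-fold lower and 0 higher (4 and 0 after centring). Among the lower were the RNA-binding protein genes Igf2bp1 (88.5 to 20.8 CPM) and Igf2bp3 (76.6 to 24.4 CPM), and Mycn (22.7 CPM to no UMI). Hmga2, also lower, held 558 of the 942 CPM of the list at E13.5. Lin28a, Lin28b and Trim71 had no UMI in any thinned cell of either stage. Igf2bp2 stood at 145 CPM at both stages. Chromatin and RNA-processing genes of 34 past the filter had 24 lower and 0 higher at P0, with a median of −1.39, including Hmgb3 (196 to 6.51 CPM), the maintenance methyltransferase gene Dnmt1 (91.5 to 11.4 CPM), Ezh2 (160 to 46.0 CPM) and Hmgb1 (1946 to 430 CPM). Centred on the median gene, 16 of these 34 were past 2-fold.

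Imprinted growth genes went both ways, with 6 of 23 higher and 5 lower and a median of −0.01 (9 and 4 after centring). Higher at P0 were Dlk1 (a Notch-like inhibitor of adipocyte formation, 2180 to 7407 CPM), Igf2 (1062 to 3109 CPM), H19 (1649 to 4071 CPM), Plagl1 (349 to 871 CPM), Zim1 and Mirg. Lower were Nnat, Usp29 (125 to 17.1 CPM), Mest (840 to 278 CPM), Peg3 (1434 to 619 CPM) and Zrsr1. Of the other insulin-like growth factor genes, Igf1 was at 216 and 264 CPM and its receptor gene Igf1r at 126 and 151 CPM. The binding proteins split, with Igfbp7 (4.28 to 426 CPM), Igfbp6 (7.27 to 509 CPM) and Igfbp3 (166 to 541 CPM) higher at P0 and Igfbp2, Igfbp4 (560 to 171 CPM) and Igfbp5 (642 to 195 CPM) higher at E13.5.

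Transcription factors of mesenchymal patterning were lower at P0 more often than higher, as were all genes past the filter (33.2% lower, 13.7% higher). Of 43 past the filter 24 were lower and 8 higher, with a median of −1.19, and centring changed these to 21 and 10. Pitx1, a hindlimb factor, had 71.0 CPM at E13.5 and no UMI at P0, at least 58.1-fold lower. Lef1, the DNA-binding partner of β-catenin and a marker of primary mesenchyme, was at 43.2 and 1.22 CPM, 35.4-fold lower (11.8 to 174). Tbx3, needed for the mammary bud, was at 97.9 and 20.8 CPM, Tbx5 at 37.6 and 6.51 CPM, Twist1 at 602 and 179 CPM, Sox11 at 344 and 68.8 CPM, and Tcf4 at 1120 and 183 CPM. Higher at P0 were Klf9 (28.7 to 427 CPM), Klf4 (243 to 924 CPM), Ebf1 (93.2 to 355 CPM), Nfix (112 to 295 CPM) and Sox9 (40.6 to 281 CPM). Sox9 was at 176 and 509 CPM in the epithelial cells.

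All 11 Hox genes past the filter, which give position along the body axis, were more than 2-fold lower at P0, with a median of −2.02, and 7 of the 11 remained past 2-fold after centring. Hoxc10 was at 133 and 22.8 CPM, Hoxa9 at 37.2 and 4.48 CPM and Hoxa10 at 56.0 and 5.70 CPM. Of the 39 Hox genes listed, the other 28 were below the filter.

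Wnt signalling genes were lower at P0 more often than higher, as were all genes past the filter (33.2% lower, 13.7% higher). Of 40 past the filter 20 were lower and 7 higher (15 and 8 after centring), and the summed level was 2.19-fold lower (2.10 to 2.28). The ligand Wnt5a was at 204 and 33.8 CPM and Wnt11 at 115 and 52.9 CPM, against the ligand Wnt2, which was higher at P0. The co-agonist Rspo1 was at 95.8 and 0.814 CPM and Rspo3 at 64.6 and 16.7 CPM. Among receptors Fzd2 was at 209 and 49.7 CPM and Fzd10 at 32.5 CPM and no UMI, while Fzd4 was at 12.4 and 33.8 CPM.

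The feedback targets Axin2 (109 to 3.26 CPM), Nkd1 (125 to 12.2 CPM) and Apcdd1 (183 to 10.2 CPM) were 33.6-, 10.3- and 18.0-fold lower. Of secreted inhibitors Dkk2 (109 to 9.36 CPM) and Sostdc1 (84.7 to 0.407 CPM) were lower at P0, and Dkk3 (4.70 to 37.8 CPM) and Sfrp4 (0.855 to 28.1 CPM) were higher. Transducers moved less, with Ctnnb1 (β-catenin) at 301 and 154 CPM and Tcf7l2 at 124 and 95.2 CPM. At E13.5 Lef1 was found in 23 of 129 thinned cells, and in 24.6% of the 69 cells with Crabp1 against 10.0% of the 60 cells without.

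Of 8 Hedgehog pathway genes past the filter 6 were more than 2-fold lower at P0 and 0 higher, and after centring 3 were lower. The co-receptor gene Gas1, also known for growth arrest, was at 652 and 82.6 CPM, the transcription factor gene Gli3 at 62.4 and 19.5 CPM and the receptor and target gene Ptch1 at 20.96 and 9.36 CPM. Of 14 FGF genes 2 were higher at P0, beside 13.7% of all genes past the filter. These were the ligands Fgf2 (6.42 to 32.2 CPM) and, just past 2-fold, Fgf10 (15.4 to 30.9 CPM), which acts on mammary buds. The antagonists Spry1 (102 to 13.8 CPM) and Spred2 (43.2 to 19.1 CPM) were lower, and the receptor Fgfr1 was at 173 and 339 CPM. After centring 5 FGF genes were higher and 1 lower. Retinoid genes were lower in 6 of 12 and higher in 2, with log2 ratios from −6.34 to 5.93. The synthesis gene Aldh1a2 was at 37.2 and 1.22 CPM, Crabp2 at 154 and 3.26 CPM and the receptor gene Rarb at 24.0 and 1.63 CPM. Of the 2 higher retinoid genes, the related enzyme gene Aldh1a3 was at 12.4 and 80.2 CPM and was not the member at 5.93, which is given no level here. The study lists Aldh1a3 among genes of luminal progenitors at P0. Per thinned P0 mesenchymal cell it had a median of 0 and at most 25 UMIs. Its difference was smaller but past 2-fold among cells with more than 10 times as many collagen as epithelial UMIs. The part of epithelial transcripts in the Aldh1a3 level was not tested.

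BMP and TGFβ genes were higher in 13 and lower in 9 of 35 (16 and 6 after centring). The ligand Bmp4, which conditions the bud mesenchyme, was at 72.7 and 24.8 CPM and Inhba at 60.3 and 8.95 CPM, and Tgfb2 was at 124 and 71.2 CPM. Antagonists went opposite ways, with Grem1 at 55.2 and 2.03 CPM and Fst (follistatin) at 11.98 and 286 CPM. The receptor Tgfbr2 was at 46.2 and 146 CPM and the inhibitory Smad7 at 45.8 and 300.4 CPM. Targets differed, with Id1 (124 to 30.1 CPM) and Id2 (231 to 70.8 CPM) lower and Id3 (276 to 602 CPM) higher at P0.

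Other growth factor genes showed Mdk (midkine, 1535 to 234 CPM), Bdnf (58.6 to 2.44 CPM) and the endothelin receptor gene Ednra (43.6 to 2.85 CPM) lower at P0, and Vegfa (82.5 to 312 CPM), Kitl (35.5 to 175 CPM) and Angptl2 (11.1 to 261 CPM) higher. The receptors Pdgfra (231 to 164 CPM) and Pdgfrb (83.4 to 45.2 CPM) lay within 2-fold.

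Receptor genes for hormones of the gland went different ways. Pth1r, through which epithelial PTHrP acts on the bud mesenchyme, was at 108 and 25.6 CPM, 4.20-fold lower at P0 (3.18 to 5.63). Prlr, the prolactin receptor gene, which the study lists among genes of mature luminal epithelium at P0, was at 0.855 and 22.4 CPM. Per thinned P0 cell it had a median of 0 and at most 7 UMIs. The part of epithelial transcripts in the Prlr level was not tested. Esr1 was at 12.4 and 12.2 CPM, Ghr at 69.3 and 67.2 CPM, and Nr3c1, the glucocorticoid receptor gene, at 43.6 and 76.1 CPM. Among genes known to respond to glucocorticoids, Mt1 was at 24.8 and 3205 CPM, 129-fold higher at P0 (99.8 to 170), Mt2 at 6.84 and 1687 CPM, Zbtb16 at 1.28 and 29.3 CPM and Sgk1 at 47.0 and 135 CPM. Fkbp5 (18.0 to 23.2 CPM), Tsc22d3 (42.3 to 38.7 CPM) and Per1 (15.4 to 11.8 CPM), which respond to the same hormones, lay within 2-fold.

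The metallothionein genes sit side by side on chromosome 8 and bind zinc and copper. Mt1 was found in 10.1% of the thinned E13.5 cells and 92.1% of those of P0, and in the epithelial cells in 78.6% and 80.3%, where its level was 705 and 1116 CPM. Mt1 in the mesenchyme thus lay below the epithelial level at E13.5 and above it at P0. Their promoters are shown for the metal response element, read as TGCACNC or TGCGCNC on either strand, which 28.2% of all 27025 promoters hold. The 150 bases before each start follow, from the same source and in the same notation.
Mt1 (chr8:94178939-94179088, plus strand): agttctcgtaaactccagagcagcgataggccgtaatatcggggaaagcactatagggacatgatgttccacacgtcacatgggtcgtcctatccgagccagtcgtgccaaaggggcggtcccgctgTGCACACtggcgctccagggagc
Mt2 (chr8:94172468-94172617, plus strand): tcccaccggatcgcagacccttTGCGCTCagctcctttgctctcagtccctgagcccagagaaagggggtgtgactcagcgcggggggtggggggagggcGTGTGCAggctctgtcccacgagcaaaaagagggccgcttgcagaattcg

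Antigen presentation, complement and interferon-response genes were higher at P0 in 16 of 19 and lower in 0, with a median of 3.96. The complement genes C1s1 (0.855 to 177 CPM), C1ra (0 to 103 CPM) and C3 (0.428 to 60.6 CPM), the complement inhibitor gene Serping1 (18.0 to 333 CPM) and the class I genes H2-D1 (4.70 to 228 CPM), H2-K1 (8.55 to 169 CPM) and B2m (85.1 to 432 CPM) were among them. Class I genes share sequence, so single values of H2-D1 and H2-K1 are uncertain. Ifitm2 was at 756 and 633 CPM and Irf1 at 29.9 and 68.0 CPM.

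Chemokine and cytokine genes had the highest ratio of summed levels among the signalling lists, at 492 CPM in E13.5 and 9827 CPM in P0, 19.96-fold higher (18.8 to 21.2). Of 16 past the filter 13 were higher at P0 and 2 lower. Cxcl1 was at 21.8 and 4367 CPM, Ccl2 at 5.99 and 3232 CPM, Ccl7 at 0.428 and 669 CPM and Il6 at 0.855 and 314 CPM. Cxcl2, which is not on the list and not in its sums, was at 1.71 and 1251 CPM in mesenchyme. In epithelium Cxcl2 was at 0.980 CPM at E13.5 and 440.5 CPM at P0. The 2 lower genes were Cxcl13 (54.3 to 3.66 CPM), whose ratio turned to the P0 side without the cells that had a UMI of Top2a or Mki67, and Cxcl14 (160 to 7.73 CPM), and Cxcl12, a homing signal of stroma, was 2.28-fold higher.

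Chemokine counts were spread unevenly over the P0 cells, from 0 to 333 UMIs per thinned cell with a median of 32, so that 125 of 265 lay above the highest E13.5 cell. Of the 265 cells 216 had Cxcl1, 156 Ccl2 and 146 both, and Ccl2 was found in 67.6% of the cells with Cxcl1 and 20.4% of those without. In P0 epithelium Ccl2 was found in 7.86% of the thinned cells.

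Immediate-early genes, which respond to stimulation and to tissue dissociation, were higher at P0 in 15 of 25, with a median of 1.57. Fosb was at 58.2 and 757 CPM, Fosl1 at 1.28 and 97.3 CPM, Junb at 222 and 1111 CPM and Fos at 254 and 862 CPM, but Jun was at 1897 and 899 CPM. Of 17 heat shock genes 6 were higher and 5 lower at P0, with the inducible Hspa1a at 1210 and 166 CPM and Hspa1b at 991 and 132 CPM, and the endoplasmic reticulum chaperone gene Hspa5 at 659 and 2177 CPM. After centring 6 of the 17 were higher and 3 lower. Hspa1a and Hspa1b are near-identical copies and their single values are uncertain. The digestion differed between the stages in its enzymes, as given above, and the part of dissociation in the chemokine and immediate-early values was not tested.

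**Figure D4:**
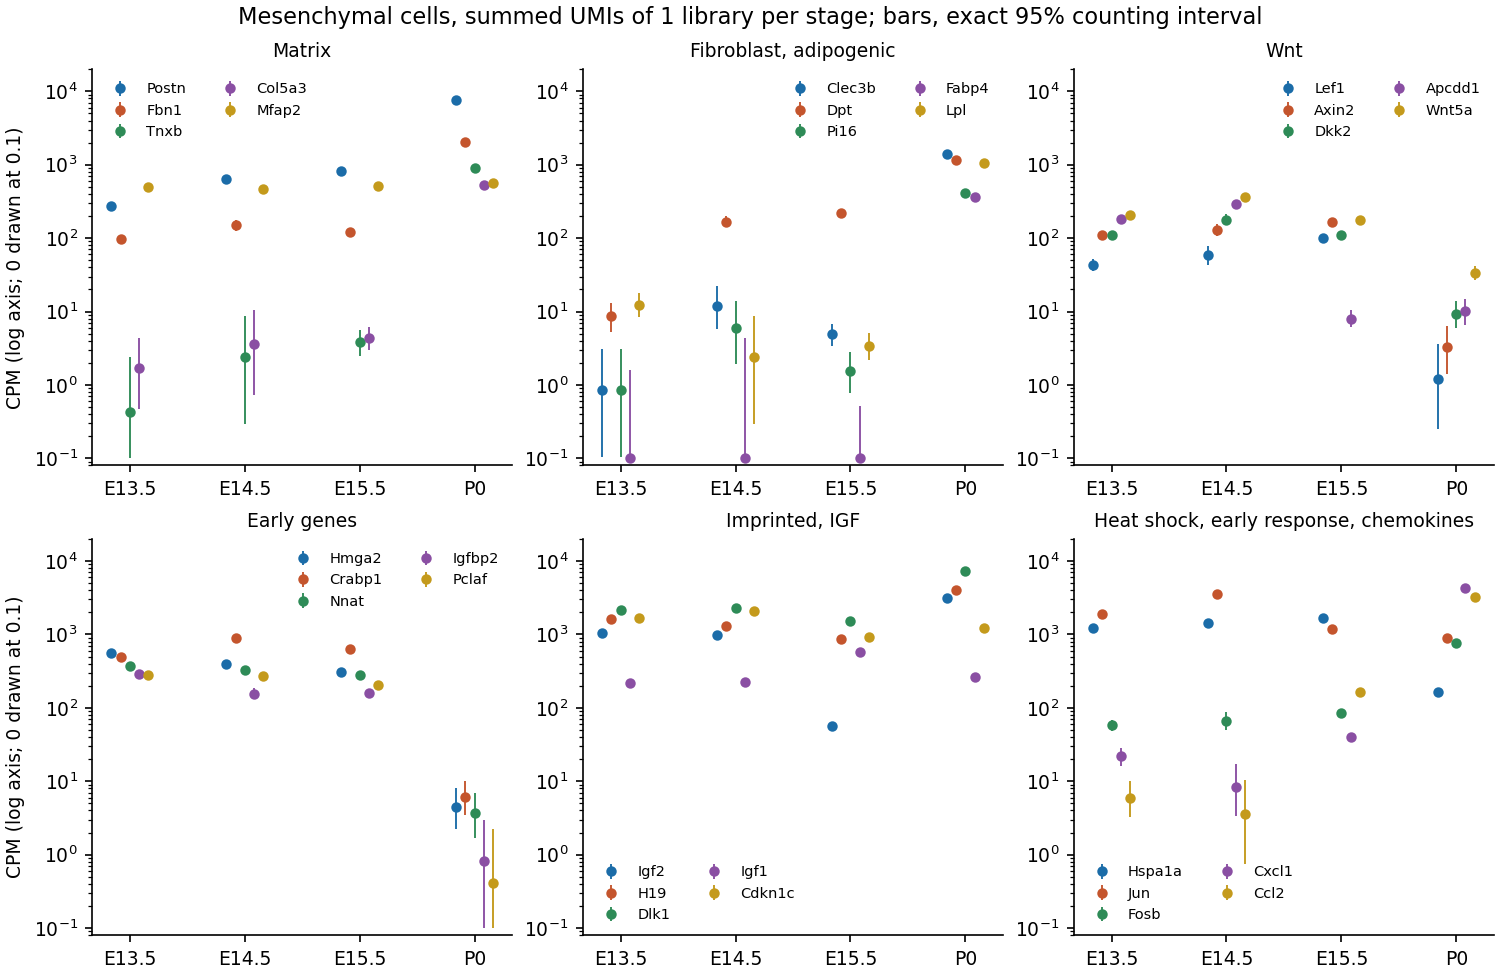
Levels of 5 genes per panel in the mesenchymal cells of all 4 libraries (x axis, stage; y axis, CPM on a log scale), with exact 95% counting intervals as bars. Clec3b, Tnxb and Pi16 stay under 12 CPM until E15.5 and are above 400 CPM at P0, Hmga2 descends from 558 through 402 and 306 to 4.48 CPM, and Igf2 stands at 56.3 CPM in the E15.5 library alone.

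The 31 mesenchymal cells of E14.5 and 279 of E15.5 were read beside the 2 stages compared. The universal fibroblast genes summed to 407, 694, 552 and 7792 CPM from E13.5 to P0, and the elastic fibre genes to 4371, 6192, 6337 and 36303 CPM. The genes of G2 and mitosis summed to 3919, 7605, 3623 and 287 CPM, and the share of cells with at least 2 UMIs of Top2a and Mki67 was 23.3%, 25.8% (11.9 to 44.6), 26.5% (21.4 to 32.1) and 1.13%. Crabp1 was at 493, 882, 630 and 6.10 CPM and Lef1 at 43.2, 58.5, 100.3 and 1.22 CPM, so both were at least as high in the middle stages as at E13.5. Esr1 was at 12.4, 21.5, 68.7 and 12.2 CPM and Igf1 at 216, 222, 571 and 264 CPM, with E15.5 the highest of the 4. Igf2 was at 1062, 980, 56.3 and 3109 CPM. The E15.5 table names an earlier Cell Ranger version in its header than the other 3 and has another gene list, in which Rian and Gm49708 have no value. Stage and version cannot be told apart.

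**Figure D5:**
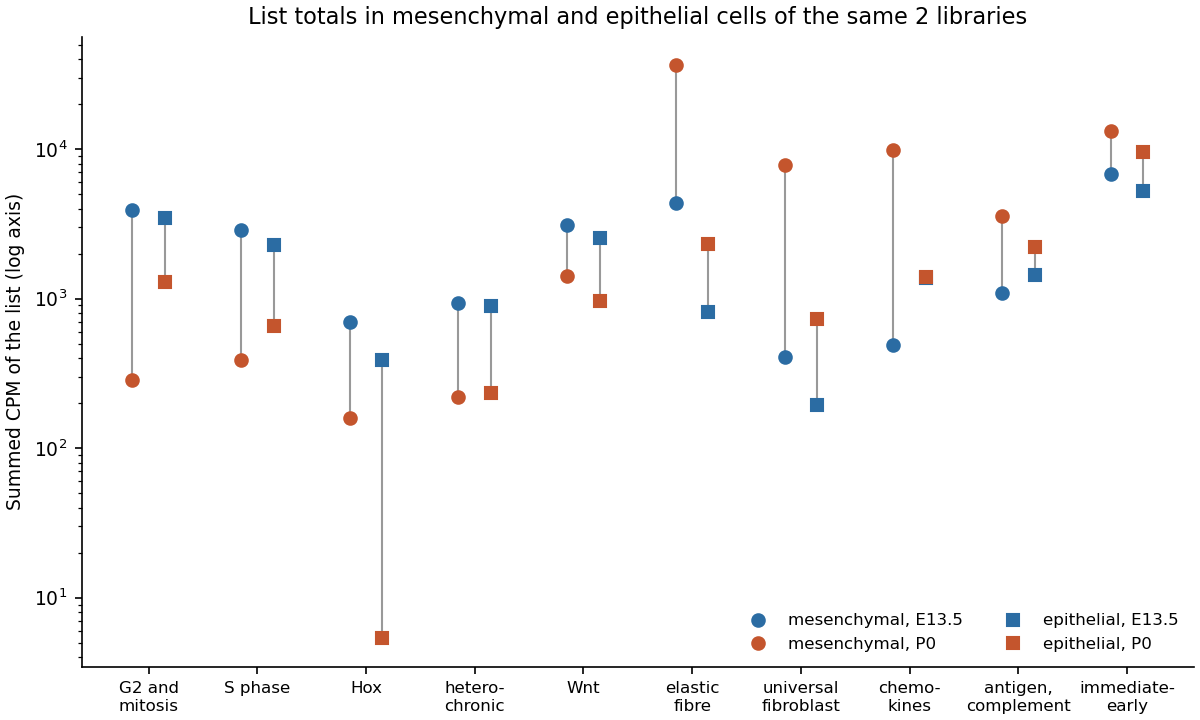
Summed CPM of 10 gene lists (y axis, log scale) in mesenchymal cells (circles) and epithelial cells (squares) of the E13.5 and P0 libraries, each pair joined by a line. The cell cycle and Hox lists are lower at P0 in both cell types. The chemokine list, which does not hold Cxcl2, goes from 492 to 9827 CPM in mesenchyme and from 1365 to 1402 CPM in epithelium.

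Epithelial cells of the same libraries (98 at E13.5 and 229 at P0) give the levels beside which these differences stand, in groups that share the library. Genes of G2 and mitosis summed to 3480 and 1292 CPM there, against 3919 and 287 CPM in mesenchyme, and the timing genes to 896 and 235 CPM against 942 and 219 CPM. Hmga2 was at 313 and 9.58 CPM in epithelium. The universal fibroblast genes summed to 194 and 732 CPM in epithelium and the elastic fibre genes to 813 and 2319 CPM, far below the P0 mesenchyme. Immediate-early genes were higher at P0 in both, at 5246 and 9532 CPM in epithelium and 6830 and 13205 CPM in mesenchyme. Of single chemokine genes, Ccl2 was at 17.3 CPM in P0 epithelium and 3232 CPM in P0 mesenchyme. Cxcl2 was higher at P0 in both, at 0.980 and 440 CPM in epithelium and 1.71 and 1251 CPM in mesenchyme. Whether the stage difference itself differs between the cell types was not tested, since each has 1 library per stage.

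Genes of cell adhesion and guidance were lower at P0 in 19 of 37 and higher in 8, and after centring in 13 and 9. Genes of the cytoskeleton were lower in 17 of 28 and higher in 3, and after centring in 16 and 7. All genes past the filter were also lower more often than higher, in 33.2% against 13.7%. The ephrin receptor gene Epha4 was at 192 and 13.8 CPM, Cdh2 (N-cadherin) at 73.1 and 6.10 CPM and Alcam at 112 and 19.1 CPM, against Cd44, the hyaluronan receptor gene, at 28.2 and 396 CPM. Tubulin genes Tubb5 (1687 to 125 CPM) and Tuba1b (1074 to 122 CPM) and the microtubule regulator gene Stmn1 (815 to 48.8 CPM) were lower, as were the contractile genes Acta2 (101 to 11.4 CPM) and Tagln (120 to 10.2 CPM). Vim (vimentin) was at 926 and 3103 CPM. Of 22 glycolysis and hypoxia genes 8 were higher, such as Hk2 (37.2 to 330 CPM) and Ndrg1 (14.1 to 152 CPM), and 3 lower, Pkm (464 to 107 CPM), Gapdh (1367 to 593 CPM) and Ldhb. After centring 11 of these 22 genes were higher and 1 lower.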

How the data were processed

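The authors deposited 1 table of raw UMI counts per stage, made with Cell Ranger 6.0.0 on mm10 per the labels, while the E15.5 header names 3.1.0. Barcodes had at least 500 UMIs. The library tables held 5705131 UMIs at E13.5 and 7099444 at P0, and no column was left unused. Genes were matched by Ensembl identifier. UMIs were summed over the kept cells, and levels are CPM with exact Poisson intervals, ratios with exact conditional binomial intervals and shares with exact binomial intervals. The level and ratio intervals were run on simulated Poisson counts, the model they assume, which checks the code only. Share intervals and the spread between cells were not simulated. In log2 ratios, and so in medians, 2-fold counts and the ranking of named genes, a stage under 3 counts was set to 3. Ratios printed for single genes use the measured counts, except those given as at least a value, which use this floor. Named genes were the 15 highest and 15 lowest ratios, part of the members of lists past 2-fold with at least 50 CPM, label-check and pathway genes. Part of the mesenchymal genes the study names were added, and others, such as Mfap4 and Mgp, are given no value here. Members and lists were chosen with earlier results of these data known. The lists of ribosomal, mitochondrial and histone genes by symbol, the Ifi200 family, and the alternatives without Gm42418, AY036118 and Lars2 and without the globin-rich cell were chosen after seeing the data. Overlaps were read from GENCODE M21, promoters from RefSeq. Python 3.11.15, numpy 2.4.6, pandas 2.3.3, scipy 1.17.1, matplotlib 3.10.9 and, for TMM scaling, edgeR 4.0.16 were used.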

Additional observations from a re-analysis of the deposited data

How the results depend on the processing

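With 1 library per stage no value has a replicate, and the shallower P0 cells limit shares of cells more than sums. The number of genes more than 2-fold higher at P0 was 1149 as reported, 1756 centred on the median gene, 1741 with TMM scaling, 511 with a mean of at least 50 CPM and 1955 with no filter. The number higher at E13.5 was 2776 as reported and 1459, 1469, 773 and 4819 under these, and 1486 where the whole interval had to pass 2-fold. The proliferating share at E13.5 was 23.3% as reported, 35.7% with 1 UMI, 34.1% without thinning and 45.0% with 5 UMIs of the G2 and mitosis list, and that at P0 was 1.13% as reported and 5.66% with 1 UMI. Without the cells that had a UMI of Top2a or Mki67 the log2 ratio changed sign for Smc4 (0.31), Ccne2 (0.45), Cxcl13 (0.55), Kif23 (1.47) and Angpt1 (0.47), and the endothelial median, which rests on Pecam1 alone, was −0.89 in place of 2.64 with no filter. Without the globin-rich cell the erythroid median was 2.30 in place of 9.67. Of 8644 values of single genes under all settings, 7342 lay inside the counting interval of the reported ratio, 1297 lay outside it on the same side or within 2-fold, and the 5 named above changed sign. The cause of these moves was not tested beyond how each setting is built. No paired analysis was possible because each stage has only 1 library.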

Other observations

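Cd3e, whose protein is part of the T cell receptor complex, had no UMI at E13.5 and 787 UMIs (320.3 CPM) in the P0 mesenchyme, where it was found in 84 of 265 cells and, after thinning, in 73. Of these 73 cells, 37 also had Pi16 and 23 had Fabp4. Of other T cell genes, Cd3d and Ptprc had no UMI in the P0 mesenchyme and Cd3g had 20 UMIs. Whether the Cd3g counts lay in the cells with Cd3e was not counted. Cd3e itself had no UMI in the P0 epithelial cells. The gene lies on the minus strand of chromosome 9 from 44998740 to 45009627 (mm10), and the annotated transcripts Gm48719 on the plus strand and Gm48720 on the minus strand overlap it. Reads of Cd3e and Gm48720 cannot be told apart here where the transcripts overlap.

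The interferon-inducible Ifi200 genes, which lie in 1 cluster and have similar sequences so that single values are uncertain, were at 0 UMIs in the E13.5 mesenchyme for 6 members. At P0 Ifi203 was at 317 CPM, Mndal at 290.2 CPM, Ifi205 at 246 CPM, Ifi211 at 141 CPM, Ifi204 at 103 CPM and Ifi207 at 47.2 CPM. In P0 epithelium Mndal and Ifi205 were at 3.07 and 1.15 CPM. Ifi202b, of the same family, was at 1.71 and 13.8 CPM in mesenchyme and at 53.4 and 197 CPM in epithelium. The nuclear RNA Neat1 was at 20.1 and 475 CPM in mesenchyme and 72.5 and 1517 CPM in epithelium, while Malat1, another nuclear RNA, was at 17855 and 27330 CPM in mesenchyme.

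Ribosomal protein genes summed to 249621 CPM at E13.5 and 180824 CPM at P0, and mitochondrially encoded genes to 33245 and 16089 CPM. The 66 histone genes found by symbol summed to 4451 CPM at E13.5 and 280.0 CPM at P0, with 29 of the 32 past the filter more than 2-fold lower at P0 and 1 higher.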
